A study of Homo sapiens with 8 samples.

Results

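The genes described here encode the proteasome and its close partners. They were chosen by symbol as 40 of the 60230 genes of the count table, by a rule that uses no measured value but was set with earlier results of these data known: 7 alpha and 7 beta subunits of the constitutive core particle, 3 immunoproteasome beta subunits, 6 ATPase and 11 non-ATPase subunits of the regulatory particle, 4 activators, and 2 assembly factors. Their RNA was measured in CYP2C19-overexpressing HepG2 cells, a human liver cancer line that carries extra CYP2C19, a drug-metabolizing cytochrome P450. The cells were kept under blasticidin selection and received DMSO, compound 4, compound 5 or compound 6, and all groups were harvested after 24 h, with 2 libraries in each of the 4 groups. Each compound was given at its own IC50, so the molar concentrations were not the same, though the study describes these IC50 values as comparable. They had been measured after a longer exposure than the 24 h used here. All are bisphenol antioxidants of plastics. Compounds 4 (metylcresol in the sample labels) and 6 (cyclohexil) share a methylene bridge and differ in the group beside each hydroxyl, tert-butyl in compound 4 and cyclohexyl in compound 6. Compound 5 (tetrabut) carries tert-butyl groups also in place of the ring methyl groups of compound 4, and an ethylidene bridge. The study asked whether such plastic-related compounds are toxic to liver cells with high CYP2C19. In the labels, replicate 1 is day 1 and replicate 2 is day 2. The labels of replicate 1 of DMSO and of compound 4 contain the word merged, and what was merged is not stated. Whether the libraries came from separate cultures is not stated, so p-values measure the spread between these libraries, which may be technical. With 2 against 2 libraries, an exact permutation test cannot reach the threshold, and none was run.

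The proteasome degrades proteins tagged with ubiquitin. Its barrel-shaped core particle has outer rings of alpha subunits, which gate the entry, and inner rings of beta subunits, of which PSMB5, PSMB6 and PSMB7 carry the proteolytic sites. In cells exposed to interferon, PSMB8, PSMB9 and PSMB10 can replace these and form the immunoproteasome, which supplies peptides for antigen presentation. The regulatory particle binds ubiquitin chains, removes them, and unfolds the substrate with a ring of ATPases. When proteasomes are impaired, the transcription factor NRF1 (gene NFE2L1), which is otherwise degraded at the endoplasmic reticulum, is deglycosylated by NGLY1, cleaved by the protease DDI2, and activates proteasome genes together with small MAF proteins. NRF2 (gene NFE2L2), its relative in the oxidative stress response, binds similar DNA elements.

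Such elements were looked for in the 250 bases before the transcription start (RefSeq, GRCh38.p14). Promoters were found for 35 of the 40 genes, with 42 start sites, and those of PSMA7, PSMB1, PSMB6, PSMB7 and PSMD4 were not analysed. The letters TGACNNNGC, the core of the element bound by NRF1 or NRF2 with a small MAF protein, stood on either strand in 10 of the 42 windows (23.8%), against 10.9% of all 35116 promoter windows. The core of an interferon-stimulated element, GAAA followed after 2 bases of any kind by GAAA again, stood in 4 windows (9.52%), those of PSMA4, PSMB4, PSMB10 and PSME2, against 3.02% of all. CCAAT, the NF-Y box, stood in 17 windows (40.5%), against 32% of all. A match of letters is a description and not a bound site. The windows of 3 genes are shown 5′ to 3′ on the gene's strand, up to the last base before the start. The match named for each is in capitals. PSME4, shown because it passed the test, held a reverse-strand TGACNNNGC match at positions −34 to −26 (chr2:53970994-53971243, minus strand). The same letters stood in windows of PSMA4, PSMB3, PSMB9, PSMC5, PSMD12, PSMD3, PSME1, PSME2 and PSMG1. None of these passed the test, and PSMB9 was not tested. Whether the match bears on the level of PSME4 was not tested. PSMB10 and PSME2 belong to the interferon-responsive genes of the family, and the interferon-stimulated core lay at −21 to −12 in PSMB10 (chr16:67936851-67937100, minus strand) and at −28 to −19 in PSME2 (chr14:24146611-24146860, minus strand). The windows of PSMB8, PSMB9 and PSME1, which are interferon-responsive too, held no such core. A TGACNNNGC match at −175 to −167 in PSME2 is left in lower case.
PSME4: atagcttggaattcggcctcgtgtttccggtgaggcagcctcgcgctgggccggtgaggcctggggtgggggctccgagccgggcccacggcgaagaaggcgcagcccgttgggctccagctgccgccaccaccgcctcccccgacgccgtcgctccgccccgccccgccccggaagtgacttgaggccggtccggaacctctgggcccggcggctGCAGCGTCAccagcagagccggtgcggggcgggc
PSMB10: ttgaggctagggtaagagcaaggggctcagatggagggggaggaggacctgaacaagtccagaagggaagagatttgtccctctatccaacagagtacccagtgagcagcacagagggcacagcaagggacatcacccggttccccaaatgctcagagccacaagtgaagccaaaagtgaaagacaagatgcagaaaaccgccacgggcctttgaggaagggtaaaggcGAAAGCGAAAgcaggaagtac
PSME2: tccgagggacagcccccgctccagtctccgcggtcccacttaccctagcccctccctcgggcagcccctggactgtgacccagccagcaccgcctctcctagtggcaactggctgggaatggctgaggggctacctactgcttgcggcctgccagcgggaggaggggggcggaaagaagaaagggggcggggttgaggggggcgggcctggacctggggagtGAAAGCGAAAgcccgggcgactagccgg

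PSME4 lies on chromosome 2 (53864067 to 53970840, minus strand) and PSMB8 (32840717 to 32844703, minus strand) beside PSMB9 (32844136 to 32859585, plus strand) on chromosome 6, all in GRCh38. PSMB10 lies on chromosome 16 (67934502 to 67937087, minus strand), PSME2 on chromosome 14 (24143362 to 24147570, minus strand) and NFE2L1 on chromosome 17 (48048329 to 48061487, plus strand).

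The total count per library was between 9791659 and 17814595. Of the 60230 genes, 13400 had enough counts to be tested, among them 39 of the 40 proteasome genes. Values are given as CPM, counts scaled to the library size after TMM normalization. CPM is a share of the counted RNA, so a change in RNA per cell or in the number of cells cannot be seen. The hepatocyte marker ALB lay between 14400 and 20700 CPM, while the leukocyte marker PTPRC was at 0 in every library and the fibroblast marker COL1A1 did not exceed 0.102 CPM. The 9 hepatocyte markers summed to 50700 to 54700 CPM with DMSO, 35000 to 42400 with compound 4, 43400 to 44800 with compound 5 and 37700 to 43800 with compound 6, and 4, 0 and 0 of them were lower past the threshold with compounds 4, 5 and 6, while 0, 1 (FGB, log2-fold change 0.53) and 0 were higher. The 3 fibroblast markers summed to 5.1 to 9.22, 23.3 to 25.4, 7.63 to 11.4 and 14.3 to 14.6 CPM, nearly all from PDGFRB, which rose with compound 4 (1.79, adjusted p = 0.0063). The 3 leukocyte markers summed to 1860 to 2180, 1420 to 1870, 1620 to 1780 and 1600 to 1890 CPM, mostly from LYZ, and CD68 rose with compound 4 (0.80, adjusted p = 0.016). Over all libraries the 3 cholangiocyte markers summed to 252 to 354 CPM and the 3 endothelial markers to 0.741 to 2.08. The part of these shifts in the results below was not tested. CYP2C19 stood at 27.7 and 16.4 CPM with DMSO, 31.4 and 44.3 with compound 4, 52.8 and 38 with compound 5, and 23.9 and 21.2 with compound 6. It was higher past the threshold with compound 5 (log2-fold change 1.05) and did not pass with compounds 4 and 6 (0.79 and 0.04). The part of this change in the results below was not tested either.

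Most proteasome genes stayed within a narrow range of their DMSO levels under each compound, and 1 activator gene, PSME4, passed the test. With compound 4, 0 of 39 genes passed the threshold of an adjusted p of 0.05 in edgeR, where 9.51% of all tested genes did (5.6% higher, 3.91% lower). With compound 5, 1 of 39 passed, PSME4, which is 2.56% of the family against 8.3% of all genes in either direction and 5.35% in the upward direction. With compound 6, 0 of 39 passed, where 0.575% of all genes did (0.493% higher, 0.0821% lower). Unadjusted p-values under 0.05 were obtained for 5, 1 and 1 of the genes with compounds 4, 5 and 6. Adjusted p is never below unadjusted p, so at least 9.51%, 8.3% and 0.575% of all genes also had unadjusted values under 0.05. The full share was not computed, here or for the unadjusted counts below. The Wald test of DESeq2 also called 0, 1 and 0 genes, with 4, 1 and 2 unadjusted p-values under 0.05. The median log2-fold change of the 39 genes was −0.04, 0.05 and −0.08, respectively, beside 0.01, 0 and 0.02 over all genes. Without regard to sign, the median size was 0.11, 0.09 and 0.09 on the log2 scale, against 0.25, 0.26 and 0.21 over all genes. Genes with higher counts have a smaller counting error, and the family was not matched to other genes on its level.

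The 95% interval of the log2-fold change lay within a 2-fold change in either direction for 39 of 39 genes under each compound, and for 71.5%, 71.6% and 74.9% of all genes with compounds 4, 5 and 6. The most extreme bounds were −0.85 for PSMB8 with compound 4 and 0.99 for PSME4 with compound 5. Within a 1.41-fold change lay 32, 35 and 32 intervals with compounds 4, 5 and 6, against 31.1%, 30.3% and 34.8% of all genes. The exceptions were PSMB8, PSMB10, PSME2 and PSME4 with each compound, PSME1 and PSMD1 with compounds 4 and 6, PSMA1 with compound 4, and PSMA7 with compound 6.

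**Figure D1:**
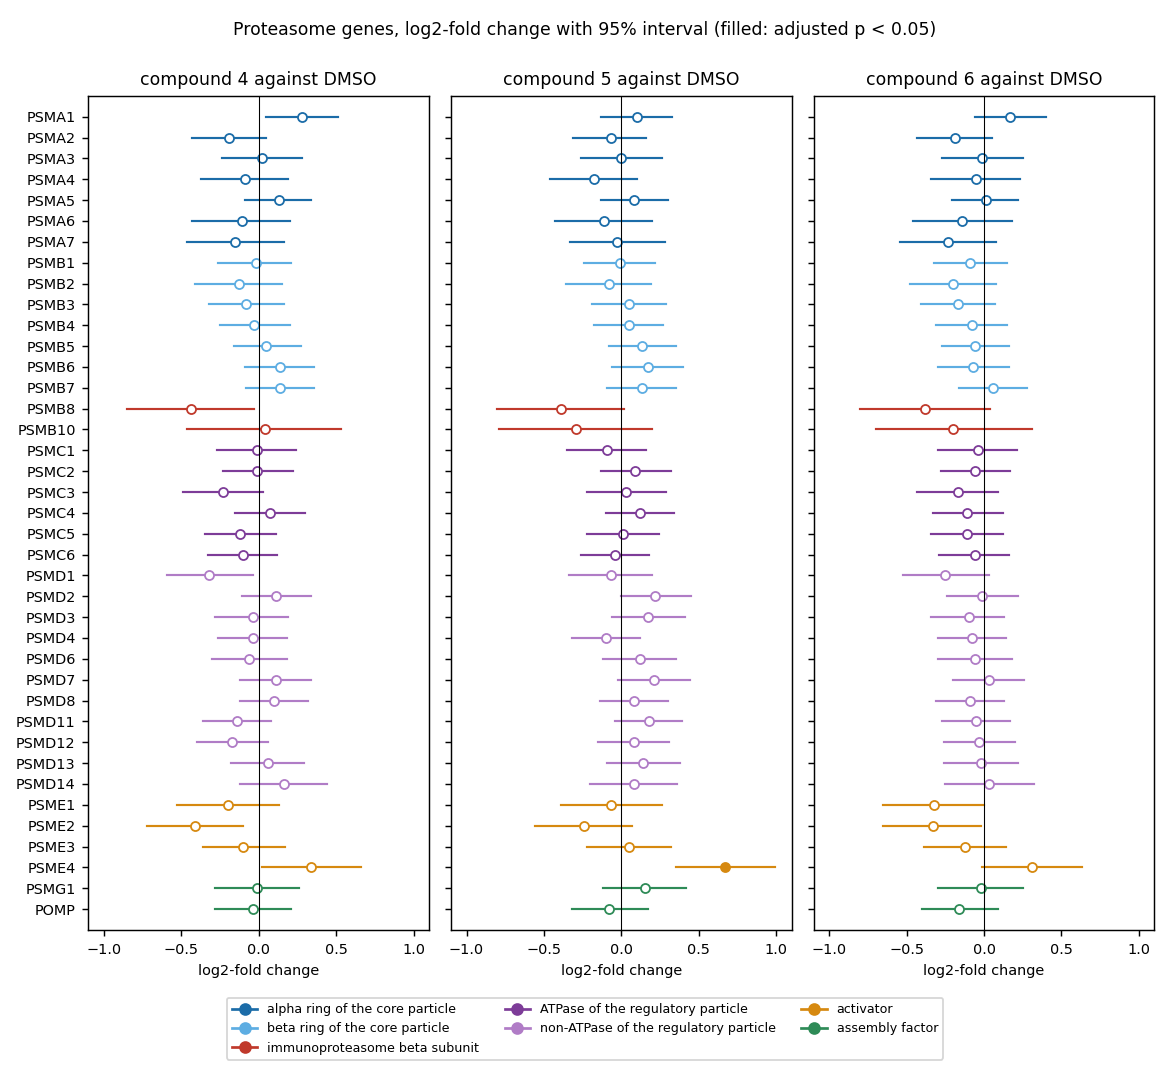
Log2-fold change of the 39 tested proteasome genes for compounds 4, 5 and 6 against DMSO (x axis, log2 scale, 2 libraries per group), with 95% intervals as lines and colours for the role. PSME4 with compound 5 (0.67) is the only filled point, past an adjusted p of 0.05, and most other points lie close to 0.

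Measured against the DMSO mean, the median of the 39 genes was −0.02 and 0.02 in the DMSO libraries, 0.03 and −0.08 with compound 4, −0.04 and 0.10 with compound 5, and −0.09 and −0.07 with compound 6. The replicates of compounds 4 and 5 therefore lay on either side of DMSO, and both compound 6 libraries lay below it. Replicate 2 exceeded replicate 1 for 34 of 39 genes with compound 5 and for 30 of 39 with DMSO, but for 8 of 39 with compound 4 and 20 of 39 with compound 6, where 48.2% to 52% of all genes did so. Together the 40 genes took 0.471% to 0.54% of the counts of a library. With compound 5, both libraries exceeded both DMSO libraries for 17 of 39 genes (43.6%, against 31% of all genes) and were below them for 5 (12.8%, against 28.5%). With compound 6, 2 genes were above (5.13%, against 29.3%) and 19 below (48.7%, against 26%). With compound 4, 10 were above (25.6%, against 30.4%) and 11 below (28.2%, against 28%). None of the 19 genes below DMSO with compound 6 passed the test.

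**Figure D2:**
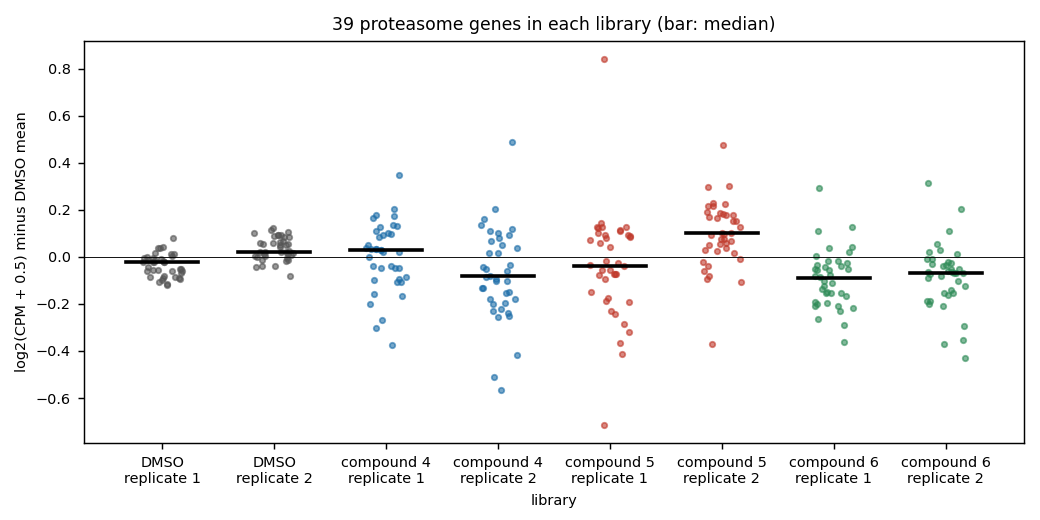
Difference of each of the 39 proteasome genes from its DMSO mean in log2(CPM + 0.5) (y axis), for each of the 8 libraries (x axis), with the median as a black bar. The medians lie between −0.09 and 0.10, and the 2 libraries of compound 5 lie on opposite sides of 0.

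None of the catalytic beta subunits passed the test with any compound. PSMB5, the chymotrypsin-like subunit and the target of bortezomib, stood at 257 and 265 CPM with DMSO, 277 and 264 with compound 4, 278 and 295 with compound 5, and 243 and 259 with compound 6. Only the compound 5 libraries lay apart from DMSO, by a log2-fold change of 0.13 (SE 0.10, adjusted p = 0.38). PSMB6, the caspase-like subunit, gave 99.4 and 97.0 CPM with DMSO, 113 and 103 with compound 4, 107 and 114 with compound 5, and 95.2 and 91.4 with compound 6. PSMB7, the trypsin-like subunit, gave 99.1 and 97.2 CPM with DMSO, 110 and 106 with compound 4, 104 and 111 with compound 5, and 106 and 98.9 with compound 6. Both libraries of compounds 4 and 5 exceeded DMSO for PSMB6 and PSMB7, with log2-fold changes of 0.13 to 0.17 that did not pass. Over the 7 constitutive beta subunits the log2-fold change ranged from −0.13 to 0.14 with compound 4, from −0.08 to 0.17 with compound 5, and from −0.20 to 0.06 with compound 6.

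Among the 7 alpha subunits, the log2-fold changes ranged from −0.19 to 0.28 with compound 4, from −0.18 to 0.10 with compound 5, and from −0.23 to 0.17 with compound 6. PSMA1 had the highest value with each compound, with 118 and 111 CPM in DMSO, 146 and 132 with compound 4, 125 and 119 with compound 5, and 125 and 132 with compound 6. All 6 treated libraries were above both DMSO libraries, but the largest log2-fold change of 0.28 (SE 0.10) had an adjusted p of 0.12. PSMA7 was the most abundant of the core subunits compared per length, at 307 ± 26.3 CPM per kilobase of transcript (SD, n = 2) with DMSO, and its log2-fold changes were −0.15, −0.03 and −0.23.

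Of the regulatory particle, 0 of 17 subunits passed in edgeR. Its 6 ATPases ranged from −0.23 (PSMC3, compound 4) to 0.12 (PSMC4, compound 5) over the 3 compounds, and its 11 non-ATPase subunits from −0.32 (PSMD1, compound 4) to 0.22 (PSMD2, compound 5). PSMD1, a scaffold of the base, gave 127 and 146 CPM with DMSO, 105 and 114 with compound 4, 119 and 141 with compound 5, and 119 and 111 with compound 6. The libraries of compounds 4 and 6 lay below DMSO and those of compound 5 overlapped it, with adjusted p of 0.13, 0.31 and 0.74 for compounds 4, 6 and 5. PSMD14, the deubiquitinase of the lid, gave 82.0 and 97.1 CPM with DMSO, 101 and 99.7 with compound 4, 86.9 and 102 with compound 5, and 87.0 and 96.4 with compound 6. With compound 5, both libraries of 8 of the 11 non-ATPase subunits exceeded both DMSO libraries, where 31% of all genes did so, and the median log2-fold change over the 11 was 0.12, with none past the threshold. The counts of the ATPase gene PSMC1 are uncertain, since its processed pseudogene PSMC1P1 received 12.6% as many counts.

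The activators held the 1 gene past the threshold. PSME4, which encodes PA200, a large single-chain activator known from acetylated-histone degradation and DNA repair, stood at 169 and 170 CPM with DMSO, 191 and 238 with compound 4, 304 and 236 with compound 5, and 208 and 211 with compound 6. All 6 treated libraries were above both DMSO libraries. PSME4 rose with compound 5 by a log2-fold change of 0.67 (SE 0.14, 95% interval 0.35 to 0.99, adjusted p = 0.024), a 1.59-fold difference. The log2-fold changes with compounds 4 and 6 were 0.34 (adjusted p = 0.16) and 0.31 (adjusted p = 0.28) and did not pass. The call with compound 5 was lost without replicate 1 of compound 5 (log2-fold change 0.47, adjusted p = 0.15), and without replicate 1 or 2 of DMSO (adjusted p = 0.12 and 0.16). Over its 14 alternatives the adjusted p of PSME4 ranged from 7e-06 to 0.16, and 11 called it.

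None of the PA28 activators passed the test. PSME2, which with PSME1 forms the interferon-inducible cap PA28αβ, stood at 122 and 143 CPM with DMSO, 107 and 92.7 with compound 4, 99.0 and 125 with compound 5, and 108 and 102 with compound 6. The libraries of compounds 4 and 6 lay below DMSO and those of compound 5 overlapped it, with log2-fold changes of −0.41, −0.33 and −0.24 and adjusted p of 0.096, 0.25 and 0.28 for compounds 4, 6 and 5. PSME1 gave 160 and 143 CPM with DMSO, 151 and 113 with compound 4, 144 and 145 with compound 5, and 130 and 112 with compound 6. Only compound 6 was free of overlap with DMSO for PSME1, with a log2-fold change of −0.32 (adjusted p = 0.27). PSME3, the nuclear activator PA28γ, gave 170 and 193 CPM with DMSO, 168 and 171 with compound 4, 172 and 204 with compound 5, and 158 and 175 with compound 6. Its libraries overlapped DMSO under each compound. PSME2 and PSME3 overlap RNF31 and BECN1 on the opposite strand. Other proteasome genes have such overlaps too, among them PSMC5 with FTSJ3 (81.2% as many counts), PSMC2 with DNAJC2 (61.6%) and PSMA2 with MRPL32 (43%). PSMA6 and PSMA2 also share their strand with overlapping genes that received 10.35% and 8.31% as many counts. Whether the counting used the strand is not given in the sources used here.

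The immunoproteasome subunits were low in these cells. Compared per length in DMSO, PSMB8 stood at 8.43 ± 0.191, PSMB10 at 12.5 ± 0.439 and PSMB9 at 0.768 ± 0.026 CPM per kilobase (SD, n = 2), where the constitutive counterparts PSMB5, PSMB7 and PSMB6 stood at 202 ± 4.88, 100 ± 1.36 and 115 ± 2.02. PSMB8 gave 9.33 and 9.63 CPM with DMSO, 7.79 and 6.24 with compound 4, 7.24 and 7.23 with compound 5, and 7.26 and 7.30 with compound 6. All 6 treated libraries were below both DMSO libraries. The log2-fold changes of PSMB8 were −0.44 (SE 0.18), −0.39 (SE 0.18) and −0.38 (SE 0.19), with adjusted p of 0.16, 0.19 and 0.31, so that none passed. PSMB10 gave 15.6 and 14.8 CPM with DMSO, 15.6 and 15.6 with compound 4, 9.06 and 15.5 with compound 5, and 12.9 and 13.6 with compound 6. Replicate 1 of compound 5 stood apart from all others for PSMB10, and its log2-fold change with compound 5 was −0.29 (adjusted p = 0.41) with both replicates and −0.74 (adjusted p = 0.03) without replicate 2. PSMB10 shares its strand with the overlapping gene ENSG00000261884, which received 38.4% as many counts, so its values are uncertain.

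PSMB9 did not pass the filter on low counts. It had 6 and 7 counts in the DMSO libraries, 0 and 0 with compound 4, 3 and 2 with compound 5, and 4 and 1 with compound 6. A count of 0 allows up to 3 counts, and this limit covers counting error only. PSMB9 lies beside PSMB8 on chromosome 6 and overlaps TAP1 and PSMB8, which lie on the opposite strand. PSMB11, the thymus form, and PSMA8, the testis form, had 0 counts in every library.

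**Figure D3:**
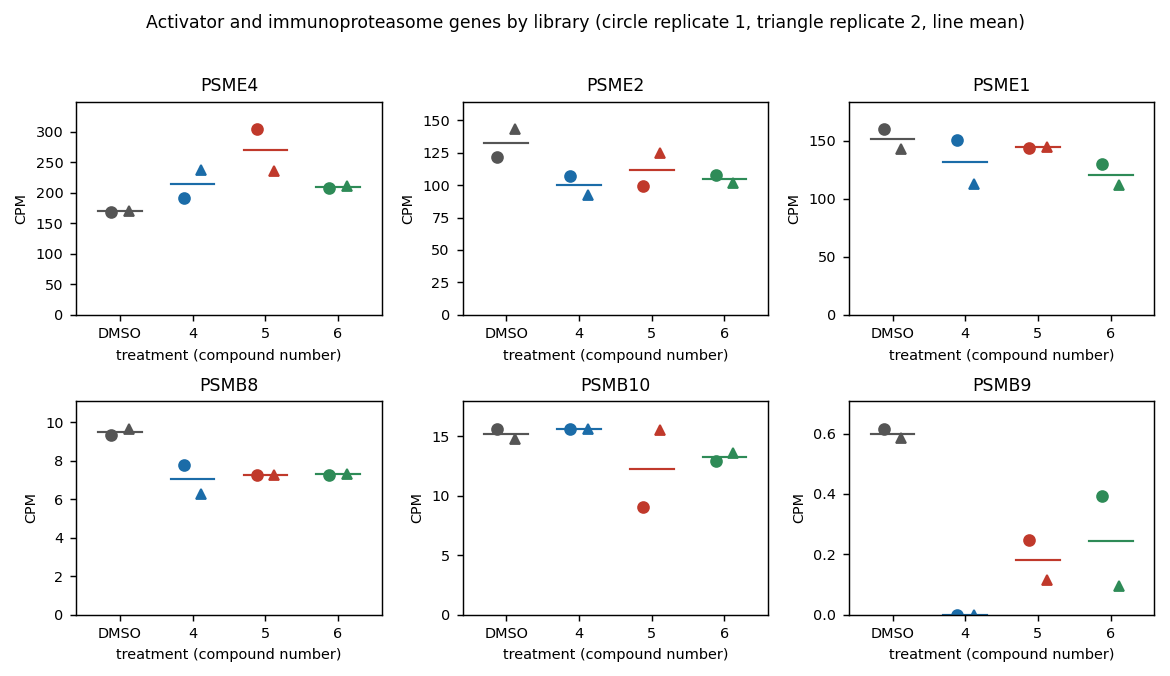
CPM (y axis, from 0) of activator and immunoproteasome genes in each library by treatment (x axis), with replicate 1 as circles, replicate 2 as triangles and the group mean of 2 libraries as a line. PSME4 is above DMSO and PSMB8 below it in all 6 treated libraries, while PSMB10 is lowest in replicate 1 of compound 5, at 9.06.

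Neither assembly factor passed the test. POMP, which matures the core particle, gave 61.1 and 61.8 CPM with DMSO, 62.8 and 57.2 with compound 4, 55.3 and 61.0 with compound 5, and 55.4 and 54.8 with compound 6. The libraries of compounds 5 and 6 lay below DMSO. Its largest log2-fold change was −0.16 with compound 6 (adjusted p = 0.48). PSMG1, a chaperone of the alpha ring, gave 36.5 and 41.5 CPM with DMSO, 39.9 and 37.8 with compound 4, 42.1 and 44.4 with compound 5, and 40 and 36.8 with compound 6, and only the compound 5 libraries lay apart from DMSO, above it. Of 14 further proteasome genes, such as the ubiquitin receptor ADRM1 and the deubiquitinases UCHL5 and USP14, 12 were tested and 0 passed with any compound. Unadjusted p-values under 0.05 were seen for 2, 2 and 1 of these 12 in edgeR and for 1, 1 and 1 in DESeq2, which also called 0.

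The compounds were also compared directly, in 3 pairs with p-values adjusted over all genes of each pair. Compound 4 against compound 6, which differ in tert-butyl against cyclohexyl, gave 0 of 39 proteasome genes past the threshold, and 0% of all genes passed. Compound 4 against compound 5 gave 0 of 39 (0.313% of all genes), and compound 6 against compound 5 gave 0 of 39 (1.03% of all genes, 0.507% higher and 0.522% lower). Unadjusted p-values under 0.05 were obtained in edgeR for 0, 4 and 6 genes and in DESeq2 for 0, 2 and 3. For every proteasome gene and pair the 95% interval lay within a 2-fold difference. Within 1.41-fold it lay for 38 genes between compounds 4 and 6, for 34 between 4 and 5, and for 34 between 6 and 5. In the same order of pairs, 80.3%, 77.3% and 76.1% of all genes lay within 2-fold, and 44.3%, 37% and 35.9% within 1.41-fold. The bounds of PSME4 reached −0.65 between compounds 4 and 5 and −0.68 between 6 and 5, and those of PSMB10 reached 0.73 between 4 and 6, 0.82 between 4 and 5, and 0.60 between 6 and 5. Compound 6 was lower than compound 5 in both libraries for 21 of 39 genes (53.8%, against 24.3% of all genes) and higher for 4 (10.3%, against 25.1%), by a median log2-fold change of −0.13. Compound 4 was higher than compound 6 in both libraries for 15 genes (38.5%, against 19% of all genes) and lower for 3 (7.69%, against 19.6%). Compound 4 was higher than compound 5 for 3 genes (22.7% of all genes) and lower for 13 (21.8% of all genes). Between compounds 6 and 5, the lowest single-gene values were −0.36 (SE 0.14, adjusted p = 0.22) for PSME4 and −0.28 (SE 0.10, adjusted p = 0.20) for PSMD3, a lid subunit. Both comparisons with compound 5 use the same compound 5 libraries, of which replicate 2 was the higher for 34 of 39 genes.

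Genes that work with the proteasome, or respond to the same stresses, were counted in the same way. In 6 lists of 73 genes, 69 were tested. With compound 4, 14 were higher and 3 lower past the threshold (24.6%, against 9.51% of all genes). Compound 5 had 13 higher and 2 lower (21.7%, against 8.3% of all genes), and compound 6 had 2 higher and 0 lower (2.9%, against 0.575%). The lists were written with earlier results of these data known, and the difference between them and the proteasome genes was not tested. For the counts with single libraries left out, given next, the share of all genes called was not computed. Without replicate 2 of DMSO, 0 of the partner genes passed with compounds 4, 5 or 6, and without replicate 1 of DMSO 2, 3 and 0 passed. Without replicate 2 of compound 4, 2 passed with that compound, without replicate 1 of compound 5, 3 passed with compound 5, and without replicate 2 of compound 6, 0 passed with compound 6. The number with compound 6 was 6 without replicate 1 or 2 of compound 5, and 3 without replicate 2 of compound 4.

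The regulator NFE2L1 itself differed between the compounds. It stood at 316 and 294 CPM with DMSO, 341 and 347 with compound 4, 221 and 218 with compound 5, and 325 and 347 with compound 6. Both compound 5 libraries were below all others, and those of compounds 4 and 6 were above DMSO. NFE2L1 fell with compound 5 by 0.48 on the log2 scale (SE 0.10, adjusted p = 0.02), whereas the values with compounds 4 and 6 were 0.17 (adjusted p = 0.27) and 0.14 (adjusted p = 0.46). In the direct comparison it was higher with compound 4 than with compound 5 by 0.65 (adjusted p = 0.033) and higher with compound 6 than with compound 5 by 0.62 (adjusted p = 0.02). Between compounds 4 and 5 the call was lost in the fit of only those 4 libraries (adjusted p = 0.15) and without any 1 of the 8 libraries (0.068 to 0.15). Between compounds 6 and 5 it was lost in the fit of 4 libraries (adjusted p = 0.072) and without any 1 library of DMSO, compound 5 or compound 6 (0.052 to 0.15), and held without either library of compound 4 (0.032). The call of NFE2L1 with compound 5 against DMSO was lost without either DMSO library or replicate 1 of compound 5.

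Of the 13 genes of the NRF1 pathway, 3 rose and 1 fell with compound 4 (5.6% and 3.91% of all genes), 4 rose and 1 fell with compound 5 (5.35% and 2.95% of all genes), and 0 passed with compound 6 in edgeR, with 4 unadjusted p-values under 0.05, where DESeq2 called 1. The small MAF genes, which encode the DNA-binding partners of NRF1 and NRF2, rose with compounds 4 and 5. MAFG gave 47.8 and 56.5 CPM with DMSO, 87.4 and 121 with compound 4, 118 and 123 with compound 5, and 69.4 and 106 with compound 6. MAFK gave 44.2 and 37.9 CPM with DMSO, 77.6 and 130 with compound 4, 153 and 98.5 with compound 5, and 60.6 and 105 with compound 6. All treated libraries lay above DMSO for both genes. The log2-fold changes with compounds 4 and 5 were 1.00 and 1.21 for MAFG, 1.34 and 1.61 for MAFK, and 0.89 and 1.21 for MAFF, with adjusted p between 0.0054 and 0.029. With compound 6 they were 0.75, 1.01 and 0.60 and did not pass. The calls with compound 4 were lost without either DMSO library or replicate 2 of compound 4 (adjusted p up to 0.22 for MAFK), and those of MAFG and MAFK with compound 5 without either DMSO library or replicate 1 of compound 5 (up to 0.15), while that of MAFF was lost only without replicate 2 of DMSO (0.077). DDI2, the protease that cleaves NRF1, gave 147 and 144 CPM with DMSO, 102 and 107 with compound 4, 120 and 125 with compound 5, and 124 and 109 with compound 6. DDI2 fell with compound 4 by 0.48 on the log2 scale (adjusted p = 0.023), with the call lost without any 1 of the 4 libraries compared, and its values with compounds 5 and 6 were −0.25 and −0.32. NGLY1 gave log2-fold changes of 0.16, −0.04 and 0.11 and did not pass. SYVN1, the ubiquitin ligase of the endoplasmic reticulum that targets NRF1, rose with compound 5 (log2-fold change 0.64, adjusted p = 0.023), with 103 and 90.3 CPM in DMSO and 169 and 132 with compound 5, and this call was lost without either DMSO library or replicate 1 of compound 5 (adjusted p up to 0.18).

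**Figure D4:**
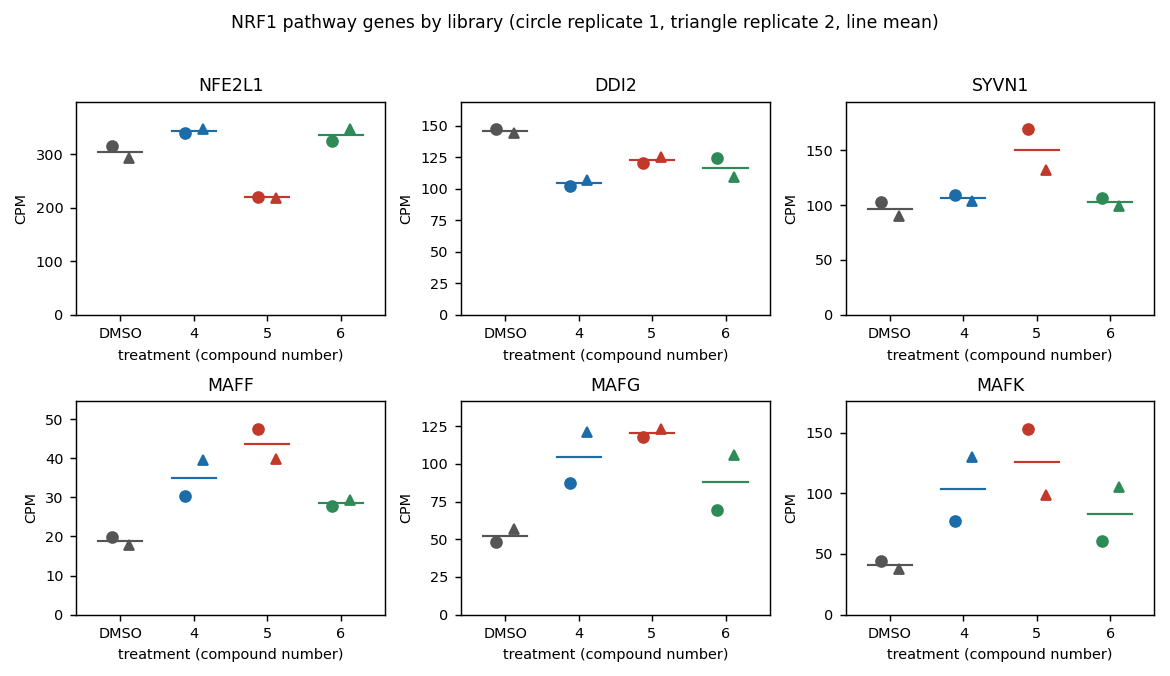
CPM (y axis, from 0) of NFE2L1 and 5 genes of its pathway in each library by treatment (x axis), with replicate 1 as circles, replicate 2 as triangles and the group mean of 2 libraries as a line. NFE2L1 is lowest in both compound 5 libraries, at 221 and 218, and the small MAF genes are above DMSO in every treated library.

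Of the 10 genes of the NRF2 list, which includes NFE2L2 itself, 7 rose with compound 4, 6 rose with compound 5, and 1 rose with compound 6, where 5.6%, 5.35% and 0.493% of all genes did. SLC7A11, the cystine transporter, had 64.9 and 56.6 CPM with DMSO, 109 and 158 with compound 4, 258 and 137 with compound 5, and 168 and 218 with compound 6. Its log2-fold changes were 1.14, 1.70 and 1.67 (adjusted p = 0.037, 0.011 and 0.048). These calls were lost without either DMSO library, without replicate 2 of compound 4, without replicate 1 of compound 5, and without either replicate of compound 6 (adjusted p up to 0.24, 0.12 and 0.44). NFE2L2 had 226 and 234 CPM with DMSO, 299 and 294 with compound 4, 346 and 280 with compound 5, and 258 and 289 with compound 6, all above DMSO. Its log2-fold change with compound 5 was 0.44, with an adjusted p of 0.052 that became 0.048 with the replicate block. With compound 6, the call of SLC7A11 was lost with the replicate block (adjusted p = 0.058), as was that of SQSTM1 (0.056).

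Among 14 genes of ubiquitin supply and shuttling, 4 rose with compound 4, 3 with compound 5, and 1 with compound 6, where 5.6%, 5.35% and 0.493% of all genes rose. SQSTM1, the autophagy receptor p62, which binds ubiquitin, had 399 and 351 CPM with DMSO, 1330 and 1630 with compound 4, 1660 and 1160 with compound 5, and 757 and 1220 with compound 6. Every treated library exceeded DMSO, by log2-fold changes of 1.98, 1.91 and 1.40 (adjusted p = 0.0035, 0.0047 and 0.048). The calls with compounds 4 and 5 were lost only without replicate 2 of DMSO (0.055 and 0.06), and that with compound 6 without either DMSO library or replicate 2 of compound 6 (up to 0.44). ZFAND5, a proteasome-binding protein that stimulates degradation, had 77.3 and 71.0 CPM with DMSO, 98.7 and 106 with compound 4, 131 and 112 with compound 5, and 89.0 and 102 with compound 6. It rose with compounds 4 and 5 by 0.47 and 0.71 on the log2 scale (adjusted p = 0.043 and 0.012), with the calls lost without either DMSO library and without replicates of the compounds (up to 0.29 and 0.13). ZFAND2A, which encodes the related AIRAP, also rose with both (0.88 and 0.71). The polyubiquitin gene UBB did not pass, with log2-fold changes of −0.15 for compound 4 and 0.12 for compound 5.

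Of 13 genes of interferon signalling and class I antigen processing, 11 were tested, and 1 fell with compound 4, 1 with compound 5, and 0 with compound 6, where 2 unadjusted p-values were under 0.05 by edgeR and by DESeq2, which called 0. DESeq2 called 2 with compound 5. The call of 1 of 11 genes is 9.09%, near the 9.51% and 8.3% of all genes called with compounds 4 and 5. Both encode peptidases that trim antigens downstream of the proteasome, and their values are given as descriptions of single genes. ERAP2 had 16.7 and 14.0 CPM with DMSO, 7.88 and 3.04 with compound 4, 7.74 and 7.40 with compound 5, and 9.61 and 8.15 with compound 6. It fell with compound 4 by 1.51 on the log2 scale (SE 0.34, adjusted p = 0.026), and all treated libraries were below DMSO. The value was −2.34 without replicate 1 of compound 4 and −0.96 without replicate 2 (adjusted p = 0.087), and the call was also lost without replicate 1 or 2 of DMSO (adjusted p = 0.11 and 0.13). ERAP1 fell with compound 5 by 0.66 (adjusted p = 0.034), from 30.3 and 26.5 to 17.6 and 18.4 CPM, with the call lost without any 1 of the 4 libraries compared. TAP1, the peptide transporter gene next to PSMB9, had log2-fold changes of −0.30, −0.03 and −0.22 and did not pass. Of 9 heat shock genes, 0 passed in edgeR with any compound, with 1, 3 and 1 unadjusted p-values under 0.05 for compounds 4, 5 and 6, while DESeq2 called 1, 1 and 0, with 2, 2 and 2. With the replicate block, HSPA8 and HSPH1 passed with compounds 4 and 5 (adjusted p between 0.026 and 0.048), at log2-fold changes of 0.34 to 0.39 without it.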

How the data were processed

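RNA of 8 samples in 4 groups was analysed. The authors quantified reads with Salmon 1.5.0 against GENCODE 38 (GRCh38), summarized them to genes with tximeta, and deposited estimated counts rounded to whole numbers and not normalized. The study tested them with DESeq2 1.38.3. Groups were taken from the sample labels.

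Counts were tested in R 4.3.3 with edgeR 4.0.16: TMM factors, filterByExpr at a minimum count of 10, quasi-likelihood tests from a shared fit of the 8 samples with 4 residual degrees of freedom, and Benjamini-Hochberg adjustment over 13400 genes, at a threshold of 0.05. The 95% intervals are not adjusted for the number of genes. Positions are from GENCODE 29, and levels per length use the median length of principal transcripts. The authors' shrinkage of log2-fold changes was not used. Scripts were tested on simulated data. Tables and figures were made with pandas 2.3.3 and matplotlib 3.10.9.

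Proteasome genes and partner lists were chosen with earlier results of these data known. Genes with values in every library are, per compound, those past the threshold or else the 3 highest and 3 lowest, the catalytic, immunoproteasome, activator and assembly genes, NFE2L1, NGLY1, DDI2 and NFE2L2, and the extreme calls of each list. PSMC1, PSMC3, PSMC4, PSMD2, MAFF, MAFG, SYVN1, ZFAND2A, UBB, PSMA7, PSMD3, TAP1 and the heat shock genes were added after their values were seen. Some genes of the partner lists are not reported here by name.

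Alternatives tried were the Wald test of DESeq2 1.42.0, a replicate block, fits restricted to the groups compared, DESeq2 size factors, no filter, a filter of 10 counts in each library, and the omission of single libraries or of a replicate number. The labelled day is where the pairing comes from. Across 13400 genes, which are not independent, the differences between replicates 2 and 1 correlated between −0.16 and 0.30 over the pairs of groups. The depth, 9791659 to 17814595 counts per sample, limits precision for genes such as PSMB9.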

Additional observations from a re-analysis of the deposited data

How the results depend on the processing

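Among the genes chosen by rule for values in every library, no called value turned its direction under any alternative. The direction of other called genes was not checked. Without the filter on low counts, 2 proteasome genes, PSMB9 and PSME2, passed as lower with compound 4, in place of 0. When each library was left out in turn, the number of proteasome genes past the threshold with compound 5 ranged from 0 (without replicate 1 of compound 5, or replicate 1 or 2 of DMSO) to 2 (without replicate 2 of compound 5, where PSMB10 was lower). The lone sample of a group was then assumed to vary like the other groups. With libraries or replicate numbers left out, the median log2-fold change of the proteasome genes ranged from −0.13 to 0.03 with compound 4. This median ranged from −0.03 to 0.09 with compound 5 and from −0.12 to −0.04 with compound 6. Leaving out replicate 1 or 2 of every group leaves no test.

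Partner genes past the threshold numbered 0 to 18 with compound 4, 0 to 16 with compound 5 and 0 to 6 with compound 6 when 1 library was left out. With compound 6, where 2 passed, 7 passed with DESeq2, 10 in the fit of 4 samples, 1 with DESeq2 size factors, and 15 without the filter. The cause was not tested. For the alternatives of this section, the share of all genes called was not computed, so these counts cannot be set against it. With the replicate block, 0 of the partner genes passed with compound 6, 20 with compound 4 and 19 with compound 5. The additions were NPLOC4 (adjusted p = 0.045 and 0.039 with compounds 4 and 5), HSPA8 and HSPH1 with both, and NFE2L2 with compound 5. It changed no other call among the partner genes, and the block changed no call among the proteasome genes (0, 1 and 0 against DMSO, 0 in each pair of compounds). A crossed pairing of compound 5, added after seeing the data, gave the same counts of proteasome genes, 0, 1 and 0.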
